A study of Mus musculus with 16 samples.

Results

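Gene expression was described in LSK cells of wild-type mice, the normal stem and progenitor cells against which a study of leukaemia mutations was set. The 4 libraries labelled WT were taken, of 16 libraries in 4 genotype groups, and no mutant library was used here. Each WT library came from the bone marrow of an individual C57BL/6 mouse of wild-type genotype, with no treatment or transgene named, and the mice are called WT 1 to WT 4. LSK cells (lineage-negative, Kit-positive and Sca-1-positive) were isolated with beads. Total RNA was sequenced as paired reads. The labels give no age, sex, batch or date, and they do not state how pure the cells were after the beads.

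The LSK fraction holds haematopoietic stem cells and the multipotent progenitors just below them. Kit, the receptor for stem cell factor, and Sca-1, the surface protein made from Ly6a, define the gate, while Cd34, Flt3 and Slamf1 divide it further. In the adult mouse the most primitive stem cells carry Slamf1 (CD150) and little Flt3, and multipotent progenitors with a lymphoid bias carry much Flt3. Transcription factors such as Runx1, Gata2, Tal1, Lmo2, Erg and Meis1 keep these cells in an undifferentiated state. Low levels of genes of the later blood lineages in LSK cells are known as lineage priming.

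Levels are given as CPM, the counts of a gene for each megacount (M) of its library after scaling between the 4 libraries, which compares a gene with itself across mice. The measure for comparing genes of different length is CPM per kb, that is per kilobase of annotated exon. Where an order of genes or a sum is given in CPM, it is not corrected for length. Errors are SDs over the 4 mice, and the CV is the SD divided by the mean. Values of a gene in every mouse are listed in the order WT 1, WT 2, WT 3 and WT 4.

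The genes of the gate were expressed in every mouse. Kit (chr5:75574916-75656722 in GRCm38) was at 908, 1056, 1005 and 955 CPM in the 4 mice and differed little among them. Cd34 (chr1:194938819-194961279), a sialomucin of progenitors, was at 827, 850.3, 1026 and 775 CPM. Flt3 (chr5:147330741-147400489), the receptor tyrosine kinase of lymphoid-biased progenitors, was at 328, 587, 735 and 676 CPM, so that WT 1 lay below the other mice, with a highest-to-lowest ratio of 2.24. Ly6a (chr15:74994877-74998031) was far lower, at 32.8, 24.1, 35.6 and 34.0 CPM. Slamf1 (chr1:171767127-171801184) was the lowest of the 5 genes, at 6.02, 4.45, 4.20 and 5.11 CPM. Per kb the order was Cd34 (119 ± 15.0, SD, n = 4), Kit (110.1 ± 7.18), Flt3 (94.2 ± 29.0), Ly6a (26.2 ± 4.25) and Slamf1 (0.803 ± 0.132 CPM per kb). The ranges of Cd34, Kit and Flt3 overlapped, so the order among these 3 was not resolved, whereas Ly6a lay below them in every mouse and Slamf1 below Ly6a in every mouse. Where the longest transcript took the place of all exons, the log2 ratio of Cd34 to Kit moved from 0.11 to 0.60.

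Several genes that define mature cells of other lineages were near 0. Other genes of neutrophils, eosinophils, monocytes and B cells, described further on, were not. Ly6g, the neutrophil surface antigen, had no count in 3 of 4 mice and 0.0760 CPM in WT 4. The sum over 16 mature neutrophil genes was nevertheless 73.7, 51.0, 16.3 and 191 CPM. The T-cell receptor genes Cd3d, Cd3e and Cd3g had mean levels of 0.403, 0.154 and 0.0888 CPM. Ms4a1 (CD20), a B-cell surface protein, was at 0.202, 0, 0.0654 and 1.37 CPM, with the highest value in WT 4. Globin genes of red cells were low as well, with Hbb-bs at 7.97, 5.97, 2.55 and 12.5 CPM and Hba-a1 at 3.08, 1.92, 1.01 and 3.66 CPM. Markers of macrophages were present at low levels, among them the complement gene C1qa at 4.26, 2.58, 0.490 and 17.2 CPM. In bulk RNA a larger number of cells of a type and more RNA in each of them cannot be told apart, here or in any result that follows.

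Depth was high and similar in kind across the mice. Total counts were 86.0, 83.0, 124 and 98.2 M, so that 3 counts in a library, the limit that a count of 0 allows, correspond to 0.0245 to 0.0375 CPM. Intervals of this kind cover counting error only. Mitochondrial genes took 0.797 to 0.941% of counts. Pairwise Pearson correlations of log2 CPM across 13486 genes ranged from 0.976 to 0.990, the 3 pairs with WT 4 being the lowest. These are correlations across genes, which are not independent replicates. Xist, a non-coding transcript of the silenced X, reached 2236 CPM in WT 1 and at most 0.827 CPM in the others, while the Y-linked gene Ddx3y had no count in WT 1 and 52.6 to 64.4 CPM in the others. For genes that stand apart in WT 1, the mouse and this difference in X- and Y-linked RNA cannot be told apart.

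The description covers 919 genes on 23 lists and in 37 families of transcription factors, receptors, surface proteins and lineage genes. Of these, 564 reached 1 CPM in each of the 4 libraries (24.4% of all genes in the table and 53% of protein-coding genes did), and 399 reached 10 CPM in each (16.4% of all genes). These shares are the background for each count of list or family members that follows. No count in any mouse was found for 49 of the 919 genes. Of 333 transcription factor genes, 198 reached 1 CPM in all mice, and of 373 surface and receptor genes, 220 did, nearly the same share of both (59.5% and 59.0%). Transcription factors had a median CV between mice of 0.133, against 0.190 for the surface and receptor genes. These classes also differ in level, with 146 of 333 and 139 of 373 at 10 CPM or more in every mouse. The median CV of all genes was 0.236 at a mean of 1 to 10 CPM and 0.0957 at 10 to 100 CPM. Whether the classes differ at like level was not tested. Over all genes with a mean of at least 1 CPM the median CV was 0.121.

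Per kb, the highest of the 373 surface and receptor genes described was Adgrg1, which encodes the adhesion receptor GPR56 of stem cells. It was at 1706, 1634, 1997 and 1551 CPM and 318 ± 35.8 CPM per kb. Ly6e, a member of the same family as Ly6a, followed with 172 ± 25.3 CPM per kb, and was higher than Ly6a in 4 of 4 mice with a mean log2 ratio of 2.72. Adgrl4 (ELTD1), Cd47, the signal that protects cells from phagocytosis, and Cd24a came next at 159, 142 and 132 CPM per kb. Below Cd34 and Kit stood Cd93 (106), Cxcr4 (94.7), the receptor that holds stem cells in the marrow, and Flt3. Cd93 was among the most even of these genes, at 707, 723, 715 and 698 CPM in the 4 mice with a CV of 0.0153.

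Of the 32 genes on the list of stem-cell markers, 31 reached 1 CPM in every mouse. Cd48, which is absent from the most primitive stem cells and present on progenitors, was at 80.7 CPM per kb, against 0.803 for Slamf1. Procr (EPCR) was at 17.2, 17.1, 30.8 and 24.0 CPM and Tek, the angiopoietin receptor, at 32.2, 19.5, 18.6 and 23.8 CPM. Both are found on stem cells, and per kb Procr lay above Tek in every mouse. Esam, Robo4 and Fgd5, genes shared by stem cells and endothelium, had mean levels of 26.1, 36.9 and 28.6 CPM. Von Willebrand factor (Vwf), which marks platelet-biased stem cells and megakaryocytes, varied more, at 89.6, 52.1, 25.4 and 46.3 CPM, with WT 1 highest and WT 3 lowest. Prom1 (CD133) varied 7.68-fold between mice, from 1.86 CPM in WT 3 to 14.2 CPM in WT 1. Cdh5, the cadherin of endothelial cells, had 1.70, 0.237, 0.286 and 2.60 CPM and was the gene of the list that missed 1 CPM, in WT 2 and WT 3.

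**Figure D1:**
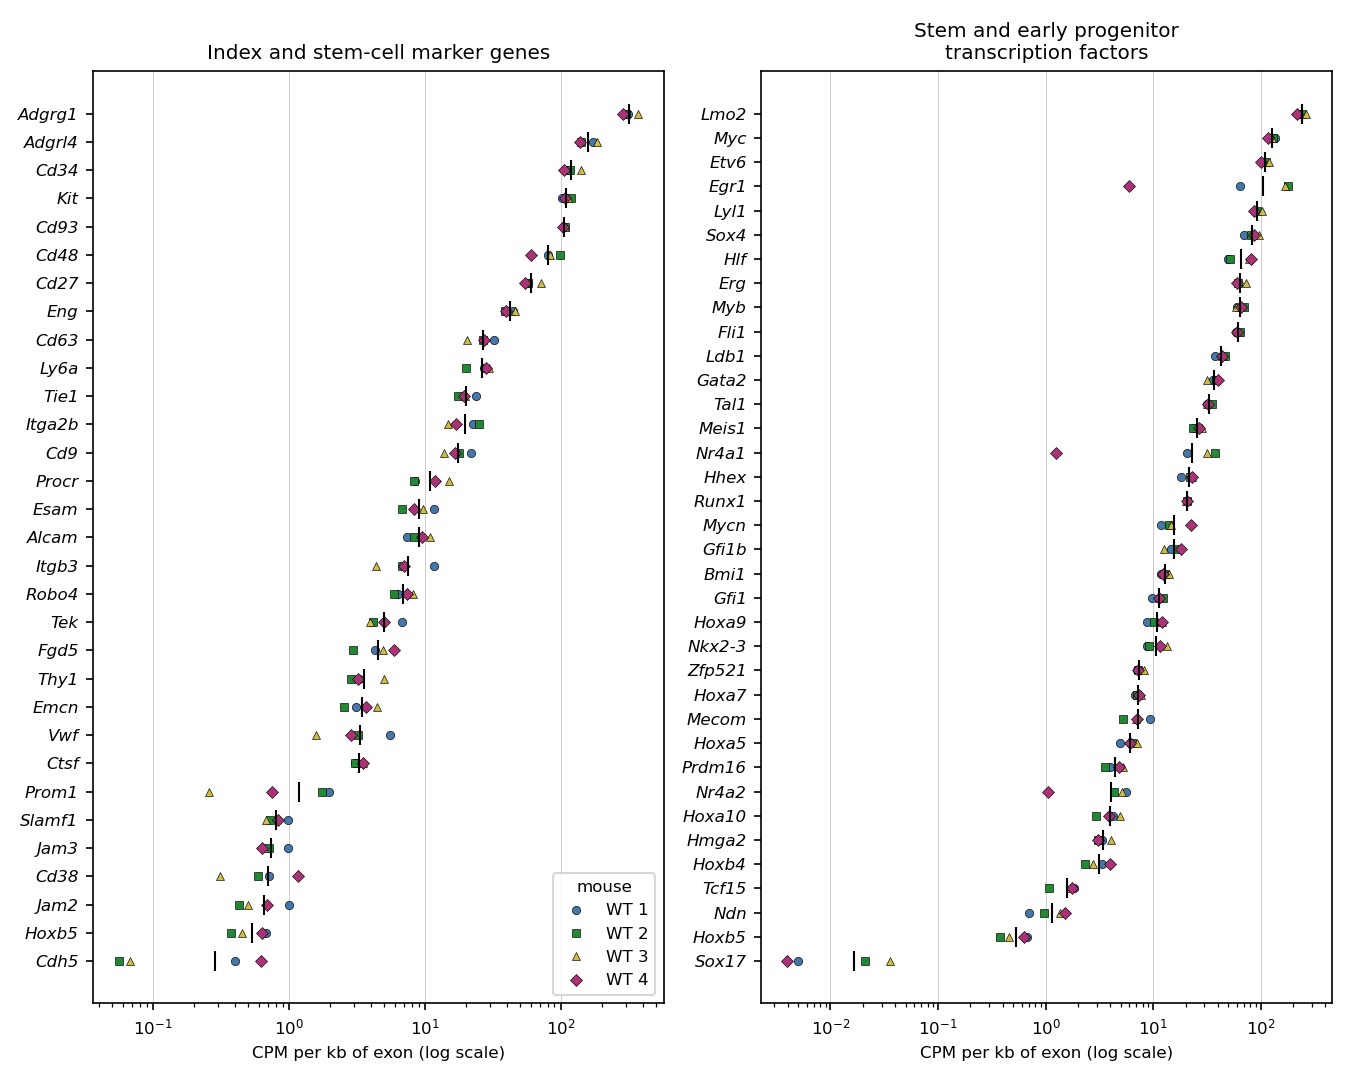
CPM per kb of exon (log scale) of the genes on the stem-cell marker list (left) and of stem and early progenitor transcription factors (right), with 1 symbol per WT mouse and a vertical bar at the mean of 4. Symbols of a gene lie close together for most genes, while Egr1, Nr4a1 and Nr4a2 are far lower in WT 4 and Prom1 in WT 3.

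Among transcription factors that build stem and progenitor identity, 36 of 37 reached 1 CPM in all mice. Lmo2, the bridging protein of the haematopoietic transcription factor complex, led with 504, 524, 572 and 475 CPM and 239.6 ± 18.7 CPM per kb. Of the factors that share binding sites with it, Lyl1 was at 92.8, Erg at 64.0, Fli1 at 61.3, Gata2 at 36.5, Tal1 at 32.8 and Runx1 at 20.5 CPM per kb. Lyl1 and Tal1 are related helix-loop-helix factors, and Lyl1 was higher in 4 of 4 mice by a mean ratio of 2.83 per kb. Erg and Fli1, a pair of related ETS factors, had overlapping ranges and a log2 ratio of 0.058, which was -0.0089 without WT 3. Gata2 was at 195, 207, 169 and 216 CPM and Tal1 at 140.2, 153, 139.8 and 141 CPM, again with overlapping ranges per kb.

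Runx1 was one of the most even genes of the whole table. It was at 247, 249, 245 and 247 CPM (chr16:92601466-92826149, 247 ± 1.59 CPM, SD, n = 4), and its CV of 0.00645 was no larger than the CV that counting error alone gives at this depth (0.00652). The binding partner Cbfb was at 169 ± 10.5 CPM, and all 3 Runx genes were present, with Runx3 at 149 ± 14.5 and Runx2 at 175 ± 17.5 CPM. The order of the Runx genes per kb depends on the length used, since Runx3 was above Runx1 over all exons (log2 ratio 0.53) and below it with the longest transcript (-0.14). Runx1 and Runx2 had overlapping ranges, with a log2 ratio of 0.060 that was -0.0044 without WT 1.

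Other stem-cell regulators spanned a wide range of levels. Etv6, an ETS repressor needed by adult stem cells, was at 660.5 ± 49.6 CPM and Myb, a factor of proliferating progenitors, at 568 ± 42.0 CPM. Hlf, a factor of stem cells and early progenitors, was lower in WT 1 and WT 2 than in the others, at 329.9, 345, 519 and 542 CPM. Meis1, a partner of Hox proteins, was well expressed at 270.0 ± 24.4 CPM. Mecom, which encodes EVI1, a regulator of long-term stem cells, was at 117, 65.4, 86.6 and 88.1 CPM with WT 1 highest, and its relative Prdm16 at 37.2, 33.5, 48.6 and 45.0 CPM. Gfi1 and Gfi1b, a pair of related repressors, were at 35.8 ± 3.67 and 28.6 ± 4.62 CPM, and the Polycomb gene Bmi1 at 50.7 ± 3.59 CPM. Hmga2, known from fetal stem cells, was at 22.5, 20.8, 27.5 and 20.8 CPM. Sox17, which fetal stem cells need, was at 0.0238, 0.0999, 0.172 and 0.0190 CPM and was the gene of the list below 1 CPM. Sox4 was at 399 ± 53.8 CPM, but 54.6% of its exons are shared with another annotated gene, and reads there may have gone uncounted.

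Factors that direct single lineages were present side by side. Of 38 on the list, 29 reached 1 CPM in every mouse. Ikzf1 (Ikaros, lymphoid) led with 85.6 ± 5.24 CPM per kb, before Nfe2 (megakaryocyte and erythroid, 80.1) and Zfpm1 (FOG1, the GATA cofactor, 49.3), and the E protein gene Tcf3 was at 41.8 CPM per kb. Spi1, which encodes the myeloid and lymphoid factor PU.1, was at 124, 109.8, 106 and 97.8 CPM, and Cebpa, the myeloid factor of granulocyte and monocyte progenitors, at 129, 93.1, 66.7 and 73.3 CPM. Per kb their ranges overlapped, with Spi1 above Cebpa in 3 of 4 mice. Irf8, which directs monocytes and dendritic cells, was lowest in WT 3 at 58.2 CPM and highest in WT 1 at 122 CPM. Gata1, the erythroid and megakaryocyte factor, was at 17.6, 35.0, 9.59 and 15.6 CPM and below Gata2 in 4 of 4 mice, by a mean log2 ratio of 2.35 per kb. Klf1, the erythroid factor, was at 6.75, 26.7, 4.45 and 5.32 CPM, so WT 2 stood above the other mice for both Gata1 and Klf1. Bcl11a and Satb1, factors of lymphoid-primed progenitors, were at 199.8, 243, 271 and 287 and 126, 217, 256 and 233 CPM, each lowest in WT 1.

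Factors of lymphoid commitment were mostly low, and those of B cells were uneven. Pax5, the factor of committed B cells, was at 0.166, 4.86, 0.474 and 28.6 CPM and Ebf1, which acts before it, at 0.416, 5.56, 1.25 and 22.2 CPM, both highest in WT 4, then in WT 2. Gata3, a factor of T cells also found in stem cells, was at 17.2, 11.7, 14.8 and 16.1 CPM and differed less across the mice than Pax5 and Ebf1. Tcf7 (TCF-1) was at 6.56 ± 1.95 CPM and Bcl11b, the T-cell commitment factor, at 1.60 ± 1.04 CPM. Tbx21 and Eomes, the T-box factors of NK cells and effector T cells, were below 1 CPM in every mouse.

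Transcription factor families differed in how many members reached 1 CPM in every mouse, which 53% of all protein-coding genes did. Nuclear receptors, at 53.2%, were near that share. All 9 interferon regulatory factors, all 11 genes of the MYC and MAX network, all 10 E2F and DP genes, all 6 genes with a Cebp symbol and all 5 NF-kB subunits reached 1 CPM in every mouse. Of 26 ETS genes 17 did, of 17 KLF genes 14, of 47 nuclear receptors 25, of 44 FOX genes 15, of 19 SOX genes 5 and of 13 PAX and EBF genes none. Etv6 and Erg led the ETS genes per kb, with Elf1 (413 ± 31.7 CPM) level with Fli1 behind them. Families were taken by gene symbol, and among the genes with a Cebp symbol Cebpa was followed by Cebpz (138 ± 14.1 CPM) and Cebpg (75.7 ± 8.67 CPM). Among the Ikaros family Ikzf1 was followed by Ikzf2 (Helios, 123 ± 7.59 CPM) and Ikzf3 (Aiolos), which was at 2.07, 1.80, 0.539 and 11.5 CPM. Ikzf3, a gene of later lymphocytes, was thus the uneven member of its family and highest in WT 4. Irf1, Irf2 and Irf3, the most abundant interferon regulatory factors per kb, were even, with means of 98.4, 124 and 52.2 CPM. Klf6, at 347, 474, 601 and 61.0 CPM, and Klf2 led the KLF family per kb and were both lowest in WT 4, while Klf13 was at 185 ± 22.6 CPM. After Sox4 came Sox12 (44.9 ± 7.61 CPM) and Sox13 (17.6 ± 2.14 CPM), and the third gene of the PAX and EBF set, Ebf4, had a mean of 0.136 CPM.

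The proliferative and signal-responsive families were led by few genes each. Myc, at 371, 353, 343 and 319.7 CPM, exceeded Mycn, at 39.0, 46.4, 48.6 and 74.1 CPM, in 4 of 4 mice. The leading FOX gene was Foxo3, a guardian of stem-cell quiescence, at 441 ± 40.2 CPM. Foxn3 (225 ± 15.3 CPM) and Foxk1 (147 ± 4.28 CPM) followed per kb. Max, the partner of Myc, was at 92.4 ± 4.41 CPM and Mga, a repressor that also binds Max, at 324 ± 37.1 CPM. The E proteins Tcf12 and Tcf4 were at 166 ± 6.67 and 208 ± 18.3 CPM, and Pbx2, a Hox cofactor, at 72.5 ± 5.08 CPM. Among cell cycle factors Tfdp1 (200.2 ± 31.6 CPM), the dimer partner of E2F proteins, led before E2f4 (77.2 ± 7.96 CPM) and E2f1 (45.2 ± 3.88 CPM). Of the Wnt effectors Tcf7l2 was at 33.8 ± 6.44 and Tcf7l1 at 3.12 ± 1.55 CPM, against 0.903, 1.27, 0.466 and 5.78 CPM for Lef1, which was highest in WT 4. Most of these genes were even across the mice, while Lef1, Tcf7l1 and Mycn, which was highest in WT 4, were less even. The leading nuclear receptors per kb were Rxrb (27.1), Nr4a1 (22.9) and Nr1h2 (22.6), and the glucocorticoid receptor gene Nr3c1 was at 152 ± 17.5 CPM. Smad3, Smad4 and Smad5, mediators of TGF-beta and BMP signals, led the SMAD family at 26.8, 25.9 and 22.6 CPM per kb. Rela, which encodes the p65 subunit of NF-kB, was at 98.3 ± 13.8 CPM, and each of the 5 NF-kB genes was highest in WT 3 (25.3% of all genes with a mean of at least 1 CPM were). Nfkb1 was at 279 ± 12.8 and Rel at 78.8 ± 7.75 CPM.

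Homeobox genes of the Hox clusters followed a cluster pattern. In the Hoxa cluster 7 of 11 genes reached 1 CPM in every mouse, in the Hoxb cluster 3 of 10, and in the Hoxc and Hoxd clusters none of 9 and none of 9. Hoxa9, a regulator of stem-cell self-renewal (chr6:52223100-52231089), was highest at 48.8, 57.0, 66.8 and 67.9 CPM, ahead of Hoxa7 at 19.4, 20.5, 22.3 and 21.4 CPM. Hoxa10 (12.99 ± 2.63 CPM), Hoxa5 (11.5 ± 1.64), Hoxa3 (7.87 ± 2.84) and Hoxa6 (4.05 ± 0.795) were lower, while Hoxa11 was at most 0.0250 CPM and Hoxa13 had no count in any mouse. Per kb Hoxa9 exceeded Hoxa7 in 4 of 4 mice by a mean log2 ratio of 0.56. Hoxb4, which expands stem cells when overexpressed, was the highest Hoxb gene at 8.67, 5.97, 7.14 and 10.1 CPM, and Hoxb5, a marker of long-term stem cells, was at 1.89, 1.05, 1.27 and 1.76 CPM. Hoxb3 lay between them per kb at 3.06, 2.46, 2.54 and 3.09 CPM. The highest Hoxc gene was Hoxc6, with 0.416, 0.0624, 0.0981 and 0.152 CPM, and 8 of 9 Hoxd genes had no count in any mouse. Hoxc4 and Hoxc5 had means of 0.0553 and 0.0391 CPM, and Hoxd8 was the Hoxd gene with a count, in WT 2. Of the 7 Hoxa genes above 1 CPM, 6 were lowest in WT 1 (27% of all genes with a mean of at least 1 CPM were).

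**Figure D2:**
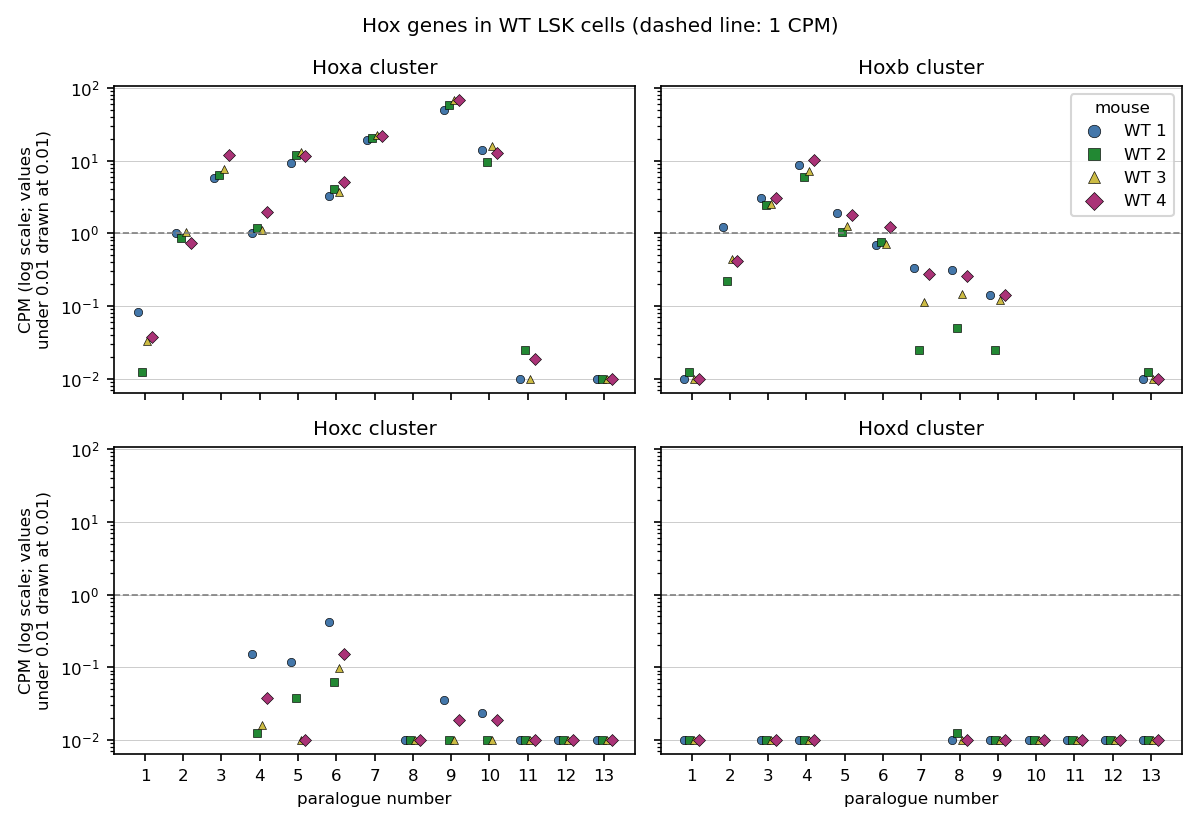
CPM (log scale) of each Hox gene in the 4 WT mice, with paralogue number on the x axis and 1 panel per cluster; values under 0.01 CPM are drawn at 0.01 and the dashed line marks 1 CPM. Genes above the line are found in the middle of the Hoxa and Hoxb clusters, with Hoxa9 highest, and none in the Hoxc and Hoxd clusters.

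Cytokine and growth factor receptors covered most pathways of the marrow, with 48 of 55 at 1 CPM or more in all mice. After Kit and Flt3 came Ifngr1, the interferon gamma receptor chain, at 48.4 ± 8.49 CPM per kb, and the TNF receptor gene Tnfrsf1a at 45.2 ± 2.39. The receptor for G-CSF (Csf3r) was at 183, 156, 173 and 110.4 CPM and 43.1 ± 8.89 CPM per kb, lowest in WT 4. Crlf2, the receptor chain for TSLP, was at 40.7 ± 5.28 CPM per kb. Both type I interferon receptor chains were even across mice, Ifnar1 at 106 ± 10.3 CPM and Ifnar2 at 96.3 ± 1.84 CPM.

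Receptors of single lineages were lower. Csf1r, the receptor of monocytes and macrophages, was at 64.2, 33.0, 19.5 and 35.0 CPM, highest in WT 1 and lowest in WT 3. Epor, the erythropoietin receptor, was at 4.22, 12.1, 3.04 and 3.82 CPM, with WT 2 above the other mice. Il7r, the receptor of lymphoid progenitors, was at 5.20, 14.6, 8.07 and 24.8 CPM, highest in WT 4 and lowest in WT 1. Il5ra, the eosinophil receptor, was at 1.03, 1.09, 0.883 and 6.13 CPM and also highest in WT 4. Il2rb, the IL-2 and IL-15 receptor chain of NK and T cells, had the same order of mice, with 1.65, 2.22, 0.768 and 6.58 CPM. The common beta chain Csf2rb (83.9 ± 21.6 CPM), Il3ra (25.3 ± 3.06 CPM) and Csf2ra (29.6 ± 5.05 CPM) provide the receptors for IL-3 and GM-CSF and were present in every mouse. Pdgfrb, better known from mesenchymal cells, was at 65.1, 100.0, 119 and 88.2 CPM, whereas its relative Pdgfra was below 1 CPM in every mouse. The IL-6 signal chain Il6st was at 118 ± 14.9 CPM and Il6ra at 61.6 ± 8.08 CPM, and Egfr, Osmr, Lepr and Lifr are receptors of low level here, with means of 0.0877, 0.183, 0.505 and 4.19 CPM.

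**Figure D3:**
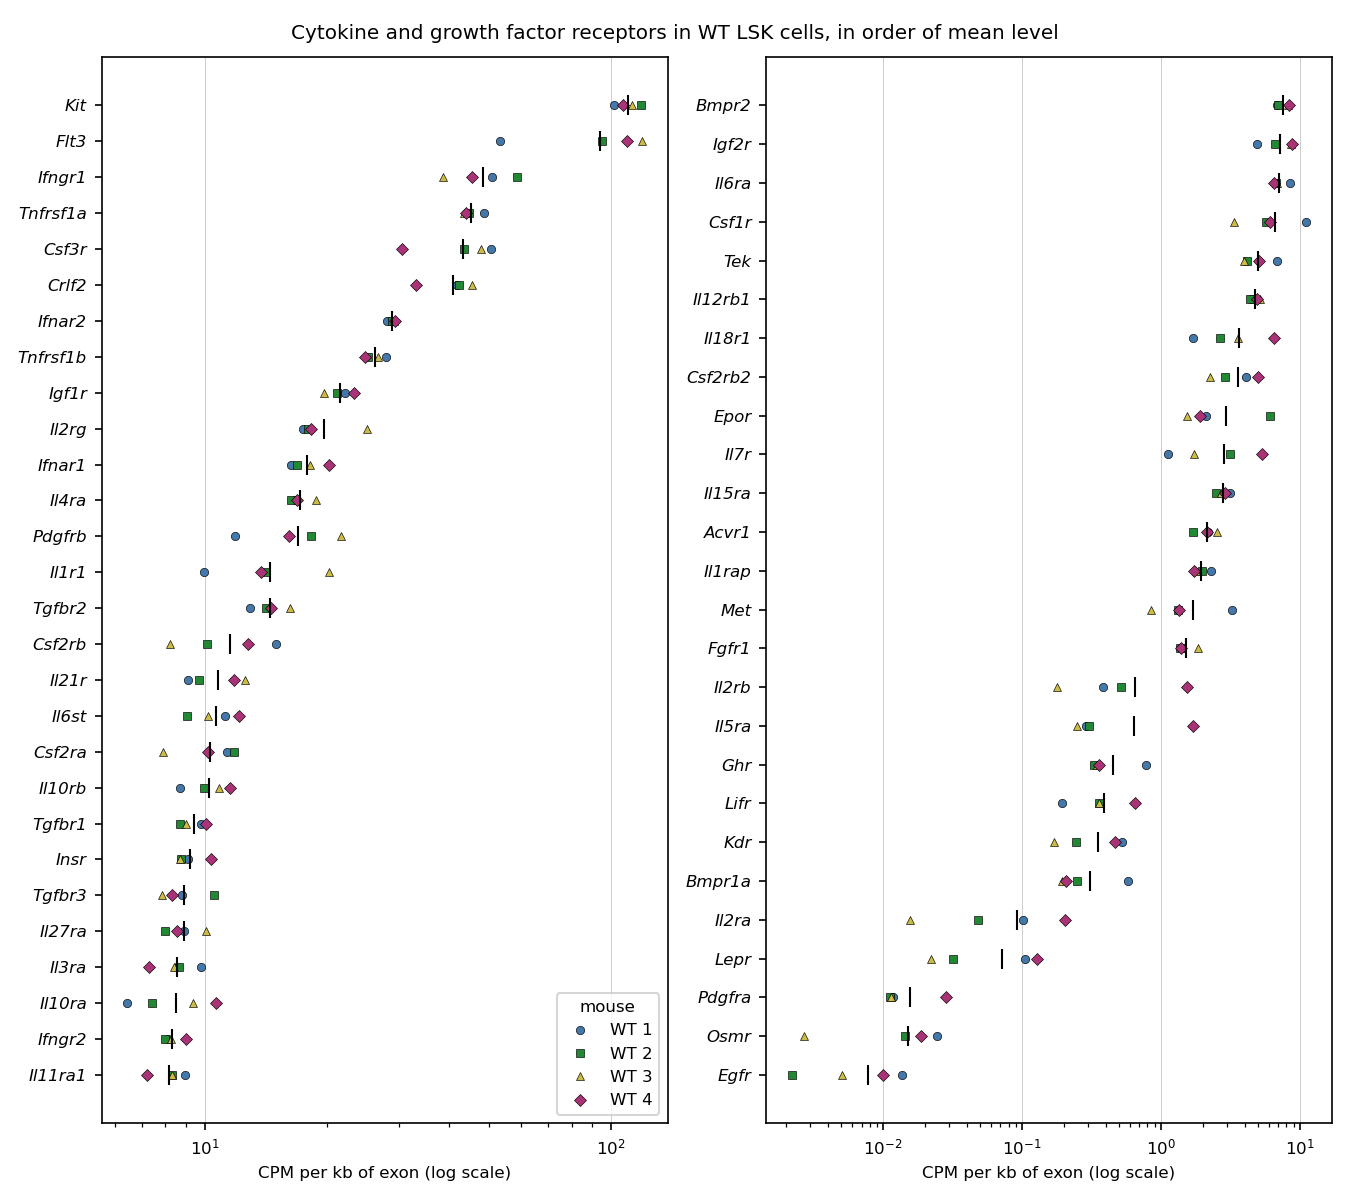
CPM per kb of exon (log scale) of cytokine and growth factor receptor genes in order of their mean, with 1 symbol per WT mouse and a vertical bar at the mean of 4. The range runs from Kit and Flt3 at the top of the left panel to Egfr at the bottom of the right panel, and Flt3 lies lower in WT 1 than in the other mice.

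The signal transducers below these receptors were even. All 11 JAK and STAT genes exceeded 10 CPM in every mouse, with a median CV of 0.0672. Jak1 was highest per kb at 58.9 ± 2.42, followed by Stat5b (40.8) and Jak3 (32.5), the kinase of the common gamma chain. Jak2, which serves Epor, was at 119.8, 124, 109 and 129 CPM. Stat5b exceeded Stat5a in 4 of 4 mice over all exons (log2 ratio 0.82), but the ratio fell to 0.053 with the longest transcript. Stat2, a mediator of type I interferon signals, was the least even of them, at 29.1, 35.1, 36.1 and 55.7 CPM and highest in WT 4.

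Receptor families differed in how many members reached 1 CPM in every mouse, which 53% of all protein-coding genes did. The SLAM (55.6%), Toll-like receptor (58.3%) and TNF receptor (60.7%) families lay near that share, and chemokine receptors (43.5%) and adhesion GPCRs (38.5%) below it. Of 38 interleukin receptor genes 26 reached 1 CPM in all mice, and Il17ra led per kb with 30.3, before Il2rg (19.7), the common gamma chain, and Il4ra (17.1). Of 23 chemokine receptor genes 10 did, and Cxcr4 led per kb with 94.7, before Ccrl2 with 6.18. In the TNF receptor family 17 of 28 did, led by Cd27 at 140.1 ± 17.9 CPM, a marker of multipotent progenitors, and Tnfrsf1a. Tnfrsf21 (death receptor 6) came next at 123 ± 9.91 CPM. In the SLAM family 5 of 9 did, with Cd48 first, then Ly9 (44.3 ± 4.98 CPM), Cd84 (80.4 ± 8.90) and Cd244a (42.3 ± 1.36), and Slamf1 below them. In the Ly6 family 5 of 31 did. The adhesion GPCR family had 10 of 26, with Adgrg3 (188 ± 21.9 CPM) behind Adgrg1 and Adgrl4. All 4 Notch genes did, with Notch2 at 554, 551, 574 and 594 CPM above Notch1 at 183, 286, 346 and 348 CPM in 4 of 4 mice, and Notch1 lowest in WT 1. Notch4 was far lower at 3.03 ± 0.360 CPM. Of 12 Wnt receptor genes 10 did, led by the co-receptors Lrp5 (202 ± 16.1 CPM) and Lrp6 (184 ± 11.2 CPM), of 14 Eph receptors 6, of 12 Toll-like receptors 7, and of 13 TGF-beta family receptors 10. Endoglin (Eng) led the last of these at 172 ± 13.9 CPM. Acvr1b, an activin receptor, and Tgfbr2 followed at 93.6 ± 3.57 and 118 ± 11.1 CPM. The leading Eph receptors Epha1, Ephb6 and Ephb2 had 28.9 ± 13.9, 19.9 ± 2.36 and 21.6 ± 7.13 CPM, the leading Frizzled gene Fzd6 35.7 ± 2.75 CPM, and the leading Toll-like receptors Tlr2, Tlr7 and Tlr4, sensors of bacterial lipoproteins, single-stranded RNA and lipopolysaccharide, 14.7 ± 1.28, 19.4 ± 6.28 and 19.5 ± 1.61 CPM. Tie1, the orphan relative of Tek, exceeded it in 4 of 4 mice, at 98.4 ± 12.9 CPM.

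Genes for adhesion and homing to the niche varied about as much as other genes, with a median CV of 0.1099 over the 26 of 29 with a mean of at least 1 CPM, against 0.121 over all such genes. Beta-1 integrin (Itgb1) was at 303 ± 25.4 CPM, and its alpha partners Itga4 at 399 ± 43.6 and Itga6 at 221 ± 33.7 CPM, which together form receptors for VCAM1 and laminin. The integrin gene Itgal, the alpha chain of LFA-1, was at 169 ± 8.58 CPM. Cdc42 and Rac2, small GTPases through which adhesion receptors steer the cytoskeleton, stood near the top of the list at 134.3 and 103 CPM per kb. Cxcr4 was at 159.5, 178, 155 and 192 CPM, while Ackr3, the other receptor for CXCL12, was at most 0.1498 CPM. Cd44, the hyaluronan receptor, was at 365 ± 40.1 CPM. Itgb2, the beta chain of leukocyte integrins, was less even, at 45.6, 46.4, 32.2 and 84.7 CPM with WT 4 highest. The calcium receptor gene Casr had at most 0.0238 CPM, below the limit of 3 counts.

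Genes of granule proteins of granulocyte and monocyte progenitors were highly expressed. Mpo (myeloperoxidase, chr11:87793581-87804413) was at 2869, 2589.5, 806 and 1323 CPM, and Elane (neutrophil elastase) at 551, 509, 86.8 and 220.1 CPM, so WT 1 and WT 2 lay above WT 3 and WT 4 for both. Ctsg and Prtn3, the serine proteases cathepsin G and proteinase 3, were at 376, 336, 85.3 and 148 and 531, 359.7, 139 and 162 CPM, with the same pair of mice above the other pair. Ms4a3, a membrane gene of granulocyte and monocyte progenitors, varied as much, at 121, 107, 18.8 and 48.3 CPM. Calr (calreticulin), a chaperone of the endoplasmic reticulum, was second per kb at 434 and less uneven, at 1546, 1458, 1109 and 892 CPM. The summed level of the 13 genes was 7609, 6850.4, 3392 and 3839.9 CPM, and 9 of the 13 were highest in WT 1 (23% of all genes with a mean of at least 1 CPM were). Genes of mature neutrophils were far lower, with a sum of 73.7, 51.0, 16.3 and 191 CPM over 16 genes. Of these, 3 reached 1 CPM in every mouse, the calprotectin gene S100a8 had 26.5, 25.5, 2.54 and 19.1 CPM, and the secondary granule gene Ngp was 7.07, 1.49, 0.825 and 58.9 CPM and highest in WT 4. The partner of S100a8, S100a9, was at 7.48, 8.90, 0.907 and 18.3 CPM. Retnlg, a resistin-like gene of neutrophils, was at 1.72, 0.350, 0.0899 and 46.7 CPM and Mmp9, a gelatinase of their granules, at 0.178, 0.0499, 0.155 and 7.84 CPM, so nearly all RNA of these genes was in WT 4.

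Monocyte and macrophage genes reached a sum of 863, 570.0, 353 and 653 CPM, and 14 of the 16 with a mean of at least 1 CPM were lowest in WT 3 (17.9% of all genes were). Lyz2 (lysozyme) was even at 157, 129, 136 and 143 CPM. Mpeg1 (perforin-2) was at 143, 104, 56.4 and 166 CPM and Ly6c2, which marks inflammatory monocytes and their progenitors, at 123, 90.5, 15.7 and 56.9 CPM, both lowest in WT 3. F13a1, a factor XIII subunit made by monocytes and megakaryocytes, was at 169, 53.9, 16.3 and 38.4 CPM with WT 1 highest, and Ccr2, the chemokine receptor of monocytes, at 48.8, 16.5, 6.65 and 22.1 CPM, also highest in WT 1 and lowest in WT 3. The macrophage genes Adgre1 (F4/80), C1qa and Vcam1 were highest in WT 4 and lowest in WT 3, with Adgre1 at 4.87, 2.88, 0.752 and 20.6 CPM and Vcam1 at 32.1, 26.9, 3.28 and 79.9 CPM. C1qb, the partner of C1qa in complement C1q, was at 4.20, 2.36, 0.327 and 16.8 CPM. Among dendritic cell genes the sum was 512, 756, 861 and 867 CPM, of which Flt3 made up most. Siglech, of plasmacytoid dendritic cells, was at 0.855, 1.17, 0.409 and 3.64 CPM and Clec9a, of conventional ones, at 3.62, 1.85, 0.605 and 4.37 CPM. Bst2 (tetherin) was at 37.7, 33.6, 34.1 and 25.2 CPM, and Ly6d, which marks B-cell-committed lymphoid progenitors as well, at 1.01, 3.63, 1.49 and 7.004 CPM and highest in WT 4.

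Eosinophil genes showed the widest spread of the lists. Their summed level was 350.1, 358, 55.95 and 1768 CPM, with 10 of 11 genes highest in WT 4 (31.7% of all genes with a mean of at least 1 CPM were) and 11 of 11 lowest in WT 3 (17.9% were). Prg2, the major basic protein of the granules (chr2:84980461-84983632), was at 183, 193, 26.4 and 911 CPM, and Epx, the eosinophil peroxidase, at 64.2, 71.4, 6.82 and 288 CPM. The ribonuclease genes Ear1, Ear2 and Ear6, near-identical copies whose reads may be split among them, were likewise highest in WT 4 and lowest in WT 3, Ear1 at 18.6, 8.57, 0.507 and 159.7 CPM. Ccr3, the eotaxin receptor, was at 1.57, 0.637, 0.172 and 13.2 CPM. Without WT 4 the mean sum was 255 CPM in place of 633. Mast cell and basophil genes had sums of 1029.9, 899, 597 and 1030.3 CPM. In that list Prss34 and Mcpt8, basophil proteases, were at 242, 147, 67.0 and 326 and 117, 77.4, 40.2 and 165 CPM, lowest in WT 3, and Cpa3, a mast cell protease present in progenitors, was at 62.4, 85.2, 36.5 and 83.5 CPM. Srgn (serglycin), the granule proteoglycan, led the list per kb with 199. The mast cell tryptase Tpsb2 was at 2.93, 0.225, 0.294 and 1.25 CPM and Fcer1a, a chain of the IgE receptor, at 21.4, 8.004, 3.43 and 13.5 CPM, both highest in WT 1. The part of mature eosinophils, basophils or mast cells in these sums was not tested.

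Erythroid genes set WT 2 apart. The sum over the 18 genes found was 677, 1351, 678 and 697 CPM, and 11 of 18 were highest in WT 2 (20% of all genes with a mean of at least 1 CPM were), while 13 were lowest in WT 3 (17.9% of all genes were). Car1 (carbonic anhydrase 1, chr3:14766216-14808368), an early gene of erythroid progenitors, was at 31.0, 269, 27.7 and 31.9 CPM, and Ermap, an erythroid membrane protein, at 17.5, 99.5, 10.2 and 11.1 CPM. The water channel gene Aqp1 was at 42.4, 139, 25.8 and 31.2 CPM. The globin genes did not share this order, since Hbb-bs and Hba-a1 were highest in WT 4 (Hbb-bs at 5.97 CPM in WT 2 and 12.5 CPM in WT 4). Car2, which stem and progenitor cells share, led the list at 426 ± 79.6 CPM. Without WT 2 the mean sum was 684 CPM in place of 851.

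Megakaryocyte genes were steadier, with sums of 1405, 1362, 1211 and 1227 CPM, and 17 of 20 reached 1 CPM in all mice. Besides Nfe2 and Fli1, the list was led by Plek (pleckstrin) at 271 ± 36.4 CPM and the thrombin receptor gene F2r at 78.0 ± 10.8 CPM. Itga2b (CD41) was at 123, 137, 80.6 and 92.4 CPM and Pf4, platelet factor 4, at 20.9, 23.7, 6.75 and 15.0 CPM, both highest in WT 2 and lowest in WT 3. Selp (P-selectin, chr1:164115264-164150026) was the exception, at 107, 15.3, 17.7 and 11.6 CPM and thus high in WT 1 alone. Gp1bb was at most 0.175 CPM, but 92.9% of its exons are shared with another gene, so its level is uncertain.

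Lymphoid priming genes were all present, 16 of 16 at 1 CPM or more in every mouse, and 12 of them were lowest in WT 1 (27% of all genes with a mean of at least 1 CPM were). Their sum was 2586, 3407, 3676 and 4403 CPM. The top rank of WT 4 in this sum rests on 1 gene, Ighm, described next. Dntt (terminal transferase), which adds bases to rearranging receptor genes, was at 315, 484, 537 and 460.1 CPM, and Ighm, whose sterile transcripts precede rearrangement, at 239.7, 264, 213 and 1178 CPM. The recombinase genes Rag1 and Rag2 were at 2.34, 20.3, 8.21 and 42.5 and 3.30, 6.49, 6.02 and 10.6 CPM. Ccr9, the chemokine receptor of thymus-seeding progenitors, was at 2.64, 15.2, 16.0 and 22.5 CPM. Thus WT 1 was lowest for Flt3, Dntt, Rag1, Rag2, Ccr9, Satb1 and Notch1, and WT 4 was highest for Ighm, Rag1, Rag2 and Ccr9.

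B-lineage genes were highest in WT 4 in 14 of the 15 whose mean reached 1 CPM (31.7% of all such genes were), and their sum was 1113, 1005, 769 and 2309 CPM. Ighm is on this list as well and made up a large part of the WT 4 sum. The surrogate light chain genes Igll1 and Vpreb1 were at 0.119, 3.62, 0.351 and 17.0 and 0.439, 2.38, 0.809 and 8.55 CPM, and Cd79a, the signal chain of the B-cell receptor, at 1.38, 4.79, 1.23 and 17.8 CPM. Igkc, the kappa light chain, was at 289, 136, 25.9 and 336 CPM and did not follow that order closely, being high in WT 1 too. Without WT 4 the mean sum was 962 CPM in place of 1299. T and NK cell genes had sums of 132, 171, 145 and 130.1 CPM, with 13 of 22 below a mean of 1 CPM. Most of that sum came from Nkg7 (96.0, 116, 80.1 and 69.6 CPM), which myeloid progenitors also express, and from the kinase gene Lck at 16.4, 27.9, 41.8 and 29.2 CPM. The T-cell receptor beta constant gene Trbc1 had 0.582, 1.74, 0.654 and 1.34 CPM, the coreceptor gene Cd4 1.98, 4.43, 6.33 and 6.11 CPM and the chemokine gene Ccl5 1.67, 1.80, 1.78 and 2.41 CPM. Stromal and endothelial genes had sums of 300.3, 273, 273 and 354 CPM. Pecam1 (126 ± 8.11 CPM) and Pdgfrb accounted for most of these, while the collagen gene Col1a1 had 10.97, 1.52, 0.106 and 2.77 CPM, and Cxcl12, a product of niche cells, 3.18, 0.849, 0.335 and 8.03 CPM. Col1a2, the other chain of type I collagen, had 18.9, 3.56, 1.94 and 3.56 CPM, and both collagen genes were highest in WT 1.

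Immediate-early genes, which cells switch on within minutes of a stimulus without new protein synthesis, were low in WT 4. Fos (chr12:85473890-85477273) was at 1360.1, 2262, 3281 and 39.7 CPM, Jun at 840.4, 1388, 2207 and 197 CPM and Egr1 at 290.5, 807, 747 and 26.7 CPM. All 21 genes of the list were lowest in WT 4 (38.1% of all genes with a mean of at least 1 CPM were), and 13 of 21 were highest in WT 3 (25.3% of all genes were). Their sum was 6165, 10676, 14141 and 1299 CPM, and its mean was 10327 CPM without WT 4 in place of 8070.1. Nr4a1, an orphan nuclear receptor, was at 73.1, 132, 112 and 4.42 CPM, Klf2 at 104, 261, 226 and 7.96 CPM, and Zfp36, which destabilises cytokine mRNAs, at 686, 1229.6, 1986 and 83.0 CPM. Myc, which is on this list as well, differed least, at 371, 353, 343 and 319.7 CPM. Egr2 and Egr3, relatives of Egr1, were low and also lowest in WT 4, at 0.713, 3.22, 1.62 and 0.333 and 3.18, 9.34, 6.02 and 0.190 CPM. On average Fos, Jun and Fosb were among the 4 highest per kb of the transcription factor genes described here (738, 363 and 201 CPM per kb). That rank rests on 3 of 4 mice.

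The promoters of 4 of these genes are shown, each of which holds an element described below. Each is the 250 bases before the RefSeq start of the gene on its own strand (GRCm38.p6). Capitals mark the cAMP response element TGACGTCA and its shorter form TGACG on either strand (CGTCA on the other strand), which also lies within the full element, or, in Zfp36, the CArG box bound by serum response factor. Fos lies at chr12:85473640-85473889 (plus strand), Nr4a1 at chr15:101266596-101266845 (plus strand), Dusp1, which encodes a phosphatase of MAP kinases, at chr17:26508473-26508722 (minus strand), and Zfp36 at chr7:28379229-28379478 (minus strand).
Fos: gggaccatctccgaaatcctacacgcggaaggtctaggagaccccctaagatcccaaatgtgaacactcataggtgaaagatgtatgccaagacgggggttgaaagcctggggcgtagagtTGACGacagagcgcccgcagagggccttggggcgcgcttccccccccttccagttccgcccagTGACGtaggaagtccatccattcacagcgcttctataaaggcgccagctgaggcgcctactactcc
Nr4a1: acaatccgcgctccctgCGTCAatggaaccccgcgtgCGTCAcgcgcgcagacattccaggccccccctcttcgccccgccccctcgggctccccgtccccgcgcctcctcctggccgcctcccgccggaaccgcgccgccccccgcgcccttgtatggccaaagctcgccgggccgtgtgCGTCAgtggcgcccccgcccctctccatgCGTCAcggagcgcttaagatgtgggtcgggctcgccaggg
Dusp1: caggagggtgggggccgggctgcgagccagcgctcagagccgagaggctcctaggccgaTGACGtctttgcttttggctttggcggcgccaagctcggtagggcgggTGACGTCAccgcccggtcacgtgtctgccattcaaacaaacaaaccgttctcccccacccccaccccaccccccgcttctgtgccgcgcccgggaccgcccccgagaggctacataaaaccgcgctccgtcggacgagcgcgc
Zfp36: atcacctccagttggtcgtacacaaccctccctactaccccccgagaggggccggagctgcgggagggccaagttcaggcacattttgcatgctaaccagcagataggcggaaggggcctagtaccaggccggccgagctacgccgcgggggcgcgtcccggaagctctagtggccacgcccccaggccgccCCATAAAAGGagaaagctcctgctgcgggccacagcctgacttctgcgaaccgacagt
The shorter form was found in the promoters of 10 of the 17 list genes that had one in the table, against 19.8% of 27025 genes with a promoter of this length. It occurred at least 2 times in 4 of 17, against 3.15% of all genes. The full element was found in 2 of 17, against 1.77%, and the CArG box in 2 of 17, against 1.62%. Jun, Jund, Klf6, Ier3, Dusp2 and Fosl2 held neither the shorter form nor the CArG box, though they were lowest in WT 4 as well. A match of letters is a description of the sequence, and any part of these elements in the pattern was not tested. Dusp1 itself was at 336, 556, 702 and 67.9 CPM.

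**Figure D4:**
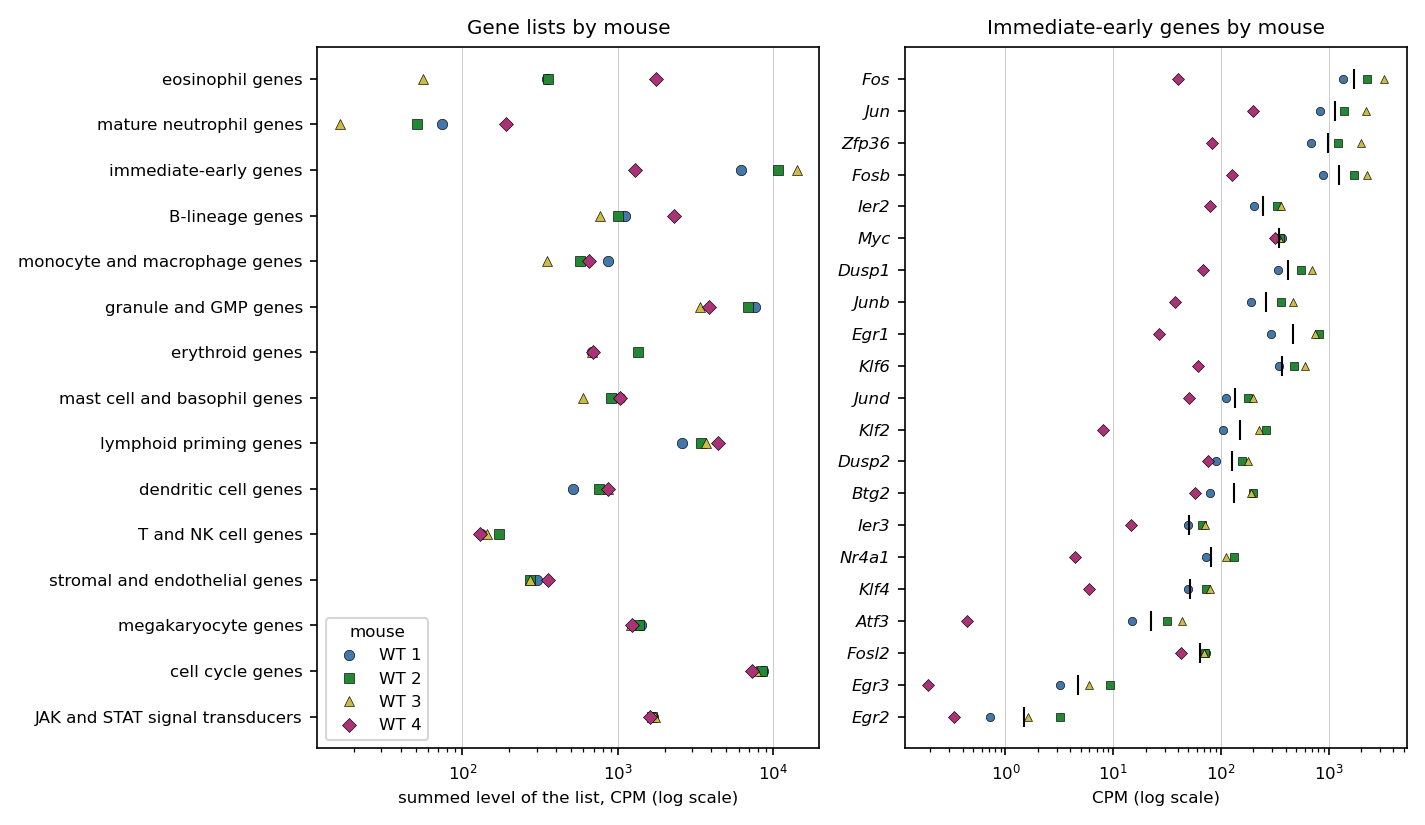
Left, summed CPM (log scale) of each gene list in the 4 WT mice; right, CPM (log scale) of the 21 immediate-early genes, with 1 symbol per mouse and a vertical bar at the mean of 4. WT 4 lies apart to the left for immediate-early genes and to the right for eosinophil, mature neutrophil and B-lineage genes, WT 2 to the right for erythroid genes, and WT 3 to the left for eosinophil genes.

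Cell cycle genes were expressed at high and fairly even levels, with 29 of 31 at 1 CPM or more in every mouse. Mki67, the marker of cycling cells, was at 1173, 1169, 972 and 1146 CPM, Top2a, the mitotic topoisomerase, at 936, 903, 786 and 808 CPM and Mcm6, a subunit of the replicative helicase, at 651, 676, 660.4 and 521 CPM. Pcna, the sliding clamp of DNA polymerase, was second per kb at 129. The most variable of the list were Cdkn1a (p21), at 18.0, 18.6, 18.7 and 8.68 CPM and lowest in WT 4, and Ccne1 (cyclin E1), at 8.82, 11.2, 6.81 and 7.01 CPM. Cdk6, the G1 kinase of haematopoietic progenitors, was at 1498 ± 186 CPM, and its range per kb overlapped that of Cdk4. Of the D cyclins, Ccnd2 was at 476 ± 24.0, Ccnd3 at 135 ± 9.40 and Ccnd1 at 39.0 ± 8.78 CPM. The inhibitor Cdkn1b (p27) was at 74.1, 76.2, 79.7 and 78.3 CPM, and Cdkn1c (p57), the inhibitor of quiescent stem cells, at 2.96, 3.05, 3.78 and 3.49 CPM. Cdkn2a had no count in any mouse and Cdkn2b was at most 0.0665 CPM. The sum of the 31 genes was 8572, 8533, 7716 and 7266 CPM, lowest in WT 4.

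Genes for chromatin regulators that are mutated in myeloid neoplasms were expressed evenly, 24 of 25 at 1 CPM or more in every mouse, with a median CV of 0.0901. Per kb the list was led by Dnmt1 (93.4), the maintenance DNA methyltransferase, Idh2 (90.7) and the cohesin gene Rad21 (76.3). Asxl1, the gene altered in other groups of this series, was at 232, 236, 222 and 224 CPM, and it exceeded Asxl2 in 4 of 4 mice by a log2 ratio of 1.79 per kb, while Asxl3 was at most 0.152 CPM. Tet2 was at 106, 101, 89.0 and 116 CPM, Dnmt3a at 193, 194, 223 and 245 CPM and the Polycomb methyltransferase Ezh2 at 144, 147, 138 and 147 CPM. Kdm6a, an X-linked histone demethylase, was at 129, 78.3, 78.2 and 87.5 CPM and higher in WT 1, the mouse with Xist RNA. Setbp1 was the lowest of those that reached 1 CPM, at 1.69, 1.85, 2.17 and 4.15 CPM and highest in WT 4. All 11 splicing factors on the list exceeded 10 CPM in every mouse. Srsf2, at 244, 224, 201 and 181 CPM, was close to Srsf1 per kb over all exons (log2 ratio of Srsf1 to Srsf2 0.020), but the ratio was -0.0055 without WT 3 and -0.53 with the longest transcript, and 25.3% of the exons of Srsf2 are shared with another gene. Prpf8 led the list with 136 CPM per kb, and Sf3b1 was at 563 ± 20.3 CPM. U2af1, which recognises the 3' splice site, was at 102, 96.4, 94.8 and 75.0 CPM, lowest in WT 4.

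The spread between mice depended on the level of a gene and its median was larger than counting error gives at every level. The median CV was 0.236 for genes with a mean of 1 to 10 CPM, where counting error alone would give 0.0620, and 0.0818 for genes of 100 to 1000 CPM, where it would give 0.00791. The biological CV that edgeR estimates, which borrows strength between genes, had a median of 0.352 and 0.126 over the same groups. A CV above 0.5 was found in 25 of 211 transcription factor genes and 42 of 243 surface and receptor genes with a mean of at least 1 CPM, and in 6.05% of all such genes. Kit, with a CV of 0.0652, lay among the steadier genes of its level, and Flt3, with 0.308, lay above the 95th percentile of genes of 100 to 1000 CPM (0.212). Besides Runx1, the steadiest protein-coding genes were the ubiquitous Sap30bp (54.5, 54.6, 54.2 and 54.4 CPM), Rptor, the mTOR partner (114, 114, 114 and 114 CPM), and Ptpn11, the phosphatase SHP2 of the Kit pathway (169.6, 168, 167 and 169 CPM). Txndc15, Pik3c3, Mettl14, Pdcd11, Pdp2, Ube2z, Wdr3 and Phtf1 complete the 12 of lowest CV among protein-coding genes with a mean of at least 10 CPM, with CVs of 0.00481 to 0.00783. Each of the 12 had a CV below that of counting error alone, for Sap30bp 0.00352 against 0.0139. They were picked as the lowest of many genes, so such close agreement of 4 counts does not rank them as steadier than other even genes. The most variable with a mean of at least 10 CPM included Retnlg (1.88), Ngp, Ear1, Alox15 (1.59) and Ear2, all high in WT 4, and Car1 and Atp1b2, high in WT 2.

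**Figure D5:**
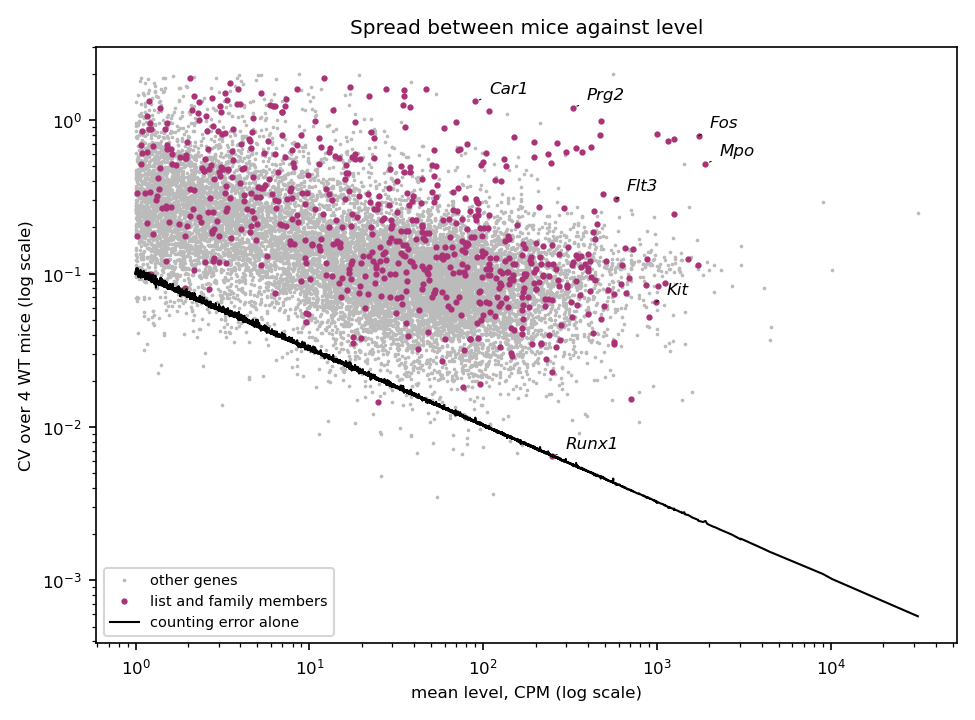
CV over the 4 WT mice against the mean level in CPM (both axes log scale) for the 14715 genes with a mean of at least 1 CPM; list and family members are drawn in purple, other genes in grey, and the line gives the CV expected from counting error alone. Most genes lie above the line, Runx1 lies on it, and Fos, Mpo, Prg2 and Car1 lie far above genes of like level.

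A further set of genes stood apart in WT 1 alone. Thbs1 (thrombospondin 1) was at 140.2, 3.48, 2.15 and 7.77 CPM, Myl10, a myosin light chain gene, at 173, 13.9, 16.6 and 11.3 CPM, and Pgr, the progesterone receptor, at 69.2, 6.41, 5.26 and 6.61 CPM, each far above the other mice, as was Selp. A count was made over 9971 protein-coding genes with a mean of at least 5 CPM, without predicted (Gm, Rik), clone-named and antisense genes. Of these, 9 were at least 4-fold above the next mouse in WT 1, 8 in WT 2, 1 in WT 3 and 19 in WT 4. In the same order of mice, 9, 2, 22 and 23 were at least 4-fold below the next mouse. The 9 below in WT 1 include the 4 Y-linked genes.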

How the data were processed

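RNA from bead-isolated LSK cells of 4 WT mice was analysed. The authors deposited whole-number counts per gene symbol for 55291 genes without normalization. The mm10 genome, the read trimmer Trimmomatic (0.38), the aligner STAR (2.7.0e) and the counter HTSeq (0.11.2) are named, per the submitters' processing notes. Neither the release of the gene annotation nor the strand option of the counting is given in the sources used here. Counting of this kind can leave out reads in exons shared by 2 genes, and 39 of the 919 genes described share over 20% of their exon bases with another gene. Without a known strand setting, reads of overlapping antisense genes cannot be told apart. The 12 columns of other samples were not used.

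Every value was checked to be whole and at least 0. Library totals of 83.0 to 124 M were scaled by TMM factors (edgeR 4.0.16, R 4.3.3) of 0.965 to 1.07 and expressed as CPM. GENCODE M21 on GRCm38, the build also called mm10, gave exon lengths, gene types and positions, and 53292 symbols were found in it. Lengths are the union of annotated exons, and those of the longest transcript were the alternative. Promoter sequences came from RefSeq (GRCm38.p6). Counting error was computed as Poisson error of the counts. With 1 group there is no comparison between groups and no p-value, and Dixon's limit for a mouse that stands apart is the lone test applied. The labels say the RNA came from individual mice, so SDs are spreads between mice. In each pair of libraries the median squared difference of counts was 12.4 to 53.8 times the value that sampling noise gives. No pair agreed within sampling noise.

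The members, lists and families were chosen with earlier results of these data known. Of 445 list genes, 444 were matched by symbol. Named genes are the 5 gate and index markers, the 3 members highest per kb of each list and family, the 2 of highest CV of each list, the 12 genes at each extreme of level or spread, and other members needed to account for a list. A few genes that this rule names, or that the lists and their counts hold, are not reported here by name. The genes named as standing apart in WT 1 alone were chosen after their values were seen. The spread estimate was tested on simulated data for 4 WT libraries and 14667 genes. There the median CV was 0.138 where 0.15 was put in and 0.498 where 0.6 was put in, so the CV from 4 mice tends to understate a large spread. Alternatives were library size only, RLE factors, each mouse left out, other filters on low genes and the longest transcript.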

Additional observations from a re-analysis of the deposited data

Results flagged for a closer look

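Of 330 results examined (307 genes and 23 list sums), 41 had a mouse whose gap to the nearest of the others was, as a fraction of the range of the 4 mice, past the 95% limit of Dixon's test. Chance flags about 1 in 20 groups of 4, and 8.54% of all genes with a mean of at least 1 CPM passed this limit. Many of the genes examined were named because of their spread or because a mouse stood apart, so the count of 41 partly restates that choice and is not to be read against these shares. The values below are the gap as a fraction of the range.

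WT 2 stood above the other mice for the summed erythroid genes (0.971) and for Car1 (0.982), Ermap (0.918), Klf1 (0.897), Epor (0.871) and Aqp1 (0.853), genes of red cell development, for the red cell and liver gene Pklr (0.880), and for Tal1 (0.893) and Max (0.838), whose ranges were narrow. WT 4 stood above for the eosinophil genes Il5ra (0.961), Ccr3 (0.893), Ear1 (0.886) and Alox15 (0.885), for the neutrophil genes Mmp9 (0.984), Retnlg (0.965), Ngp (0.892) and Ly6g (1, with a count in that mouse alone), and for the B-lineage genes Ighm (0.947), Ms4a1 (0.852) and Pax5 (0.835), and for Ikzf3 (0.861), Lef1 (0.848) and Ccl5 (0.833), genes of lymphocytes. It lay below the others for Ptgs2 (0.955), Cdkn1a (0.934) and Mcm6 (0.840).

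WT 1 stood above for Pgr (0.979), Myl10 (0.967), Thbs1 (0.959), Selp (0.936), Col1a2 (0.904) and, over a narrow range, Il6ra (0.832), and below for the glucocorticoid receptor gene Nr3c1 (0.867) and the low gene Ebf4 (0.843). WT 3 stood above for Fbp1 (0.966), Sox13 (0.905), Smad3 (0.899), Il2rg (0.896), Erg (0.877) and Lrp5 (0.857), and below for Mki67 (0.866). Of the immediate-early genes on the list and examined here none passed the limit, and WT 1, WT 2 and WT 3 were themselves spread over a wide range.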

How the results depend on the processing

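Levels changed little with the scaling. The number of genes at 1 CPM or more in every library was 13486, and 13489 with library size only. Of 320 single genes, 318 moved by less than their SD with library size only and 318 with RLE factors. The median CV of 0.121 was 0.36 when every gene with a count was kept, since low genes carry more counting error. With the longest transcript the log2 ratio of Cd34 to Kit was 0.60 in place of 0.11, that of Runx3 to Runx1 -0.14 in place of 0.53 and that of Srsf1 to Srsf2 -0.53 in place of 0.020, which follows from the lengths themselves.

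With each mouse left out in turn, the log2 ratio of Erg to Fli1 ranged from -0.0089 (without WT 3) to 0.10, that of Runx1 to Runx2 from -0.0044 (without WT 1) to 0.12, and that of Srsf1 to Srsf2 from -0.0055 (without WT 3) to 0.051. The means of 637 members with at least 1 CPM fell by over 1.5 times in 51 genes without WT 4, in 8 without WT 2, in 7 without WT 1 and in 0 without WT 3. This measure shows only a mouse that stands high, since leaving out a low mouse cannot raise a mean of 4 that far. It therefore does not show the genes in which WT 3 stood low, such as the 22 at least 4-fold below the next mouse. No paired analysis was possible because all results come from 1 group. Limits are the 4 mice, the unknown purity of the cells and age of the mice, the X- and Y-linked RNA that sets WT 1 apart, and the lack of a strand setting. Where a gene had no count, a level of up to 0.0245 CPM in the deepest and 0.0375 CPM in the shallowest library was not detectable at this depth.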

Other observations

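By CPM, which is not corrected for length, the most abundant protein-coding RNAs of the WT LSK libraries were mainly those of protein synthesis and the cytoskeleton. Eef1a1, the elongation factor that brings transfer RNA to the ribosome, was at 9996, 10953, 10923 and 8678 CPM, and Eef2, which moves the ribosome along, at 4112, 4388, 4304 and 3645 CPM. Actb (beta-actin) was at 4675, 4668, 4564 and 4242 CPM with a CV of 0.0448, and mt-Co1, a mitochondrially encoded subunit of cytochrome oxidase, at 4346, 4316, 4665 and 4537 CPM with a CV of 0.0369. The chaperone gene Hsp90ab1 (3028 ± 341 CPM), the poly(A)-binding protein gene Pabpc1 (2683 ± 222 CPM) and the tubulin gene Tubb5 (2119 ± 160.5 CPM) were also among the 12 highest, as were the ribosomal protein genes Rpl4 (2329 ± 244 CPM) and Rpsa (2132 ± 242 CPM). Malat1, a nuclear non-coding RNA, was at 2628, 2761, 3050.4 and 3662 CPM and highest in WT 4, where the genes of the translation machinery named here were lowest. A pair of non-protein-coding loci ranked 1 and 3 among all genes by mean CPM and were less even. The locus CT010467.2, annotated as an unprocessed pseudogene on chromosome 17, held 2.20 to 3.79% of all counts, and Rn7sk, the small nuclear RNA that restrains transcription elongation, 0.530 to 1.121%.

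Some genes outside the lists differed widely between mice, most of them in a lone mouse, and were chosen after their values were seen. In WT 4, where immediate-early genes were low, the prostaglandin synthase gene Ptgs2 (7.35, 7.03, 7.10 and 0.143 CPM), the cytokine inhibitor gene Socs3 (52.3, 37.5, 44.2 and 4.63 CPM), the kinase gene Plk2 (21.05, 36.5, 28.6 and 2.33 CPM) and Rtn2 (16.3, 21.03, 40.7 and 0.190 CPM) were low too. Fbp1, an enzyme of glucose synthesis, was at 11.7, 11.2, 56.8 and 10.1 CPM. It was the lone gene at least 4-fold above the next mouse in WT 3 among the 9971 protein-coding genes counted. Pklr, the pyruvate kinase of red cells and liver, was at 5.53, 25.7, 3.41 and 2.78 CPM, high in WT 2. Slc15a2, a peptide transporter, was at 0.154, 32.1, 0.883 and 9.07 CPM, highest in WT 2 and then in WT 4. Jchain, the joining chain of secreted antibodies, was at 111, 54.6, 10.9 and 107 CPM, low in WT 3. The macrophage iron exporter gene Slc40a1 was at 16.8, 26.3, 3.26 and 49.5 CPM and the mannose receptor gene Mrc1 at 11.3, 5.33, 0.940 and 38.0 CPM, both highest in WT 4 and lowest in WT 3, as C1qa and Adgre1 were. No test of these patterns was made.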
